A study of Homo sapiens with 6 samples.

Results

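The stathmins and the neuronal microtubule-associated proteins (MAPs) are described here through 10 genes listed by symbol: the stathmins STMN1, STMN2, STMN3 and STMN4, the MAPs MAP2, MAP1A, MAP1B, MAPT and DCX, and the neuronal beta tubulin TUBB3. All 10 were found among the 26372 genes of the expression table, and all 10 reached the mean of 1 FPKM (fragments corrected for gene length and library total) that the statistical comparison asked of a gene. The cells were BE(2)-M17, a neuroblastoma line of human origin, and their polyadenylated RNA was sequenced in 3 libraries labelled control and 3 labelled GOMAFU knockdown. GOMAFU is a long non-coding RNA, and MIAT is its symbol in the table. Both groups carry the replicate numbers 2, 3 and 4. Per the labels' protocols, cells were transfected with 100 pmol of small RNA by a lipid reagent. The labels give neither the agent that control cells received nor the sequence that lowered GOMAFU. Separate cultures are not stated for the replicates. The spread behind every p-value is therefore that of these libraries and may be technical.

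Microtubules are hollow polymers of alpha and beta tubulin that grow and shrink at their ends, and they form the tracks and the scaffold of axons and dendrites. Stathmins bind free tubulin and promote disassembly, and phosphorylation switches this activity off. MAPs of the MAP2 and tau type and of the MAP1 type bind along the polymer and stabilise it, and doublecortin does so in migrating and newly born neurons. In neuroblastoma lines several of these genes, though not the broadly expressed STMN1, are commonly used as markers of a neuron-like state.

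MIAT was lower in every knockdown library than in any control, with 1.27, 1.32 and 3.21 FPKM in knockdown replicates 2, 3 and 4 against 5.38, 5.96 and 8.57 in the controls. Knockdown replicate 4 stood apart from the other libraries (r = 0.940 to 0.956 with each of them, across genes), and a reference list of 16 interferon-induced genes summed to 9703 FPKM there, or 1.62% of that library. The same list summed to 473 and 75.9 FPKM in knockdown replicates 2 and 3 and to 38.4 to 44.4 FPKM in the controls. Of 11 sympathoadrenal markers 9 reached a mean of 1 FPKM, with HAND2 at 514.8 to 606 and PHOX2A at 364 to 471 FPKM, while TH was near 0 (highest value 0.087). These markers summed to 5360 to 5480 FPKM in control libraries and to 4644 to 4974 in knockdown libraries, most of it CHGA and MYCN; the part of this gap in the results below was not tested. No glial marker of 7 had a mean of 1 FPKM, 1 blood cell marker of 6 did, and of 9 mesenchymal markers the 4 that did were DCN, THY1, PDGFRB and LUM. Depth in reads is unknown, and the smallest steps between low values placed the libraries at 0.976 to 1.36 times the depth of control replicate 3.

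The levels of the 10 genes spanned a wide range, and their order was the same in all 6 libraries. FPKM is scaled by gene length, which allows a rough comparison of levels between genes, as the annotation and the use of strand are not stated. STMN2 was the most abundant at 963 ± 70.7 FPKM in the controls (mean ± SD, n = 3, as for all means given so), the 94th of 12164 genes tested. STMN1 followed at 567 ± 19.6, TUBB3 at 233 ± 13.0 and STMN3 at 109 ± 7.38 FPKM. The stabilising MAPs came next, with MAP1B at 57.6 ± 1.82, MAP2 at 35.7 ± 1.87, MAPT at 22.4 ± 0.71, DCX at 16.6 ± 5.05 and MAP1A at 9.07 ± 1.12 FPKM. STMN4 was last at 1.65 ± 0.29 FPKM. Of the 9 neighbouring pairs in this order, the control ranges overlapped for 1 pair, MAPT and DCX, although MAPT was the higher of these in each library. Together the 10 genes held 0.324% ± 0.010 of all FPKM in control libraries and 0.304% ± 0.010 in the knockdown libraries. Most of this was STMN2 and STMN1, and the groups did not overlap (exact permutation p = 0.1, the smallest possible).

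**Figure D1:**
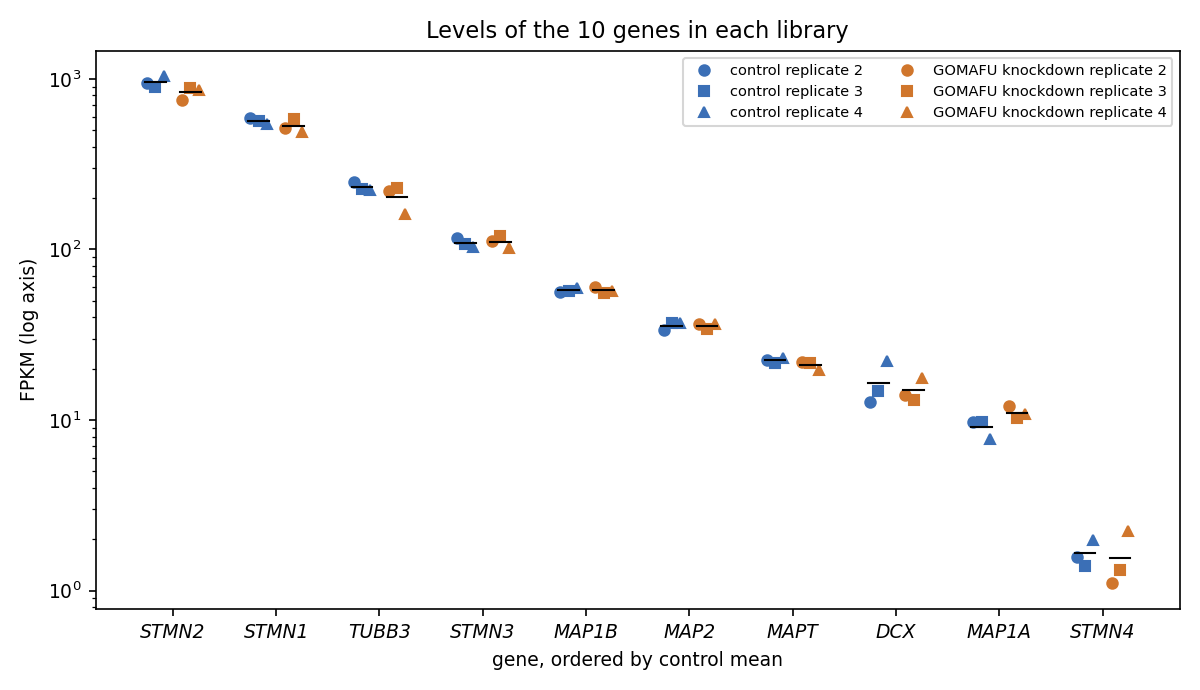
FPKM of each of the 10 genes (log axis) in the 3 control libraries (blue) and the 3 GOMAFU knockdown libraries (orange), with black lines for the group means and marker shapes for the replicate number. The order of the genes is the same in all 6 libraries, and only STMN2 and MAP1A have groups that do not overlap.

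None of the 10 genes passed the threshold of an adjusted p under 0.05 in limma (two-sided, knockdown minus control on the log2(FPKM + 1) scale, Benjamini-Hochberg over all 12164 genes), and each had an adjusted p of 0.9998. Neither did any other gene, so the background for that call is 0%. MIAT itself was not called (log2 difference -1.42, unadjusted p = 0.00125, adjusted p = 0.9998, limma). At an unadjusted p under 0.05 there was 1 member, MAP1A on the higher side, against 2.16% of all genes tested (0.970% higher and 1.19% lower), and MAP1A lost that call in 10 of 16 alternatives. For STMN2 all 3 knockdown values lay below all 3 controls, as for 4.35% of all genes, and for MAP1A all 3 lay above, as for 4.01% of all genes. Over 10 genes, 2 without overlap stand beside 8.36% of all genes in either direction, and a count this small cannot be set apart from that share. Fitted differences were below 0 for 7 of the 10 genes, against 53.3% of all genes, and their median was -0.081 on the log2 scale against -0.0081 over all genes. These counts are over a list whose members share libraries, and they are descriptions. All genes tested reach down to a mean of 1 FPKM, whereas STMN2, STMN1, TUBB3 and STMN3 ranked 94th to 732nd in the controls. The members were not set against genes of like abundance.

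**Figure D2:**
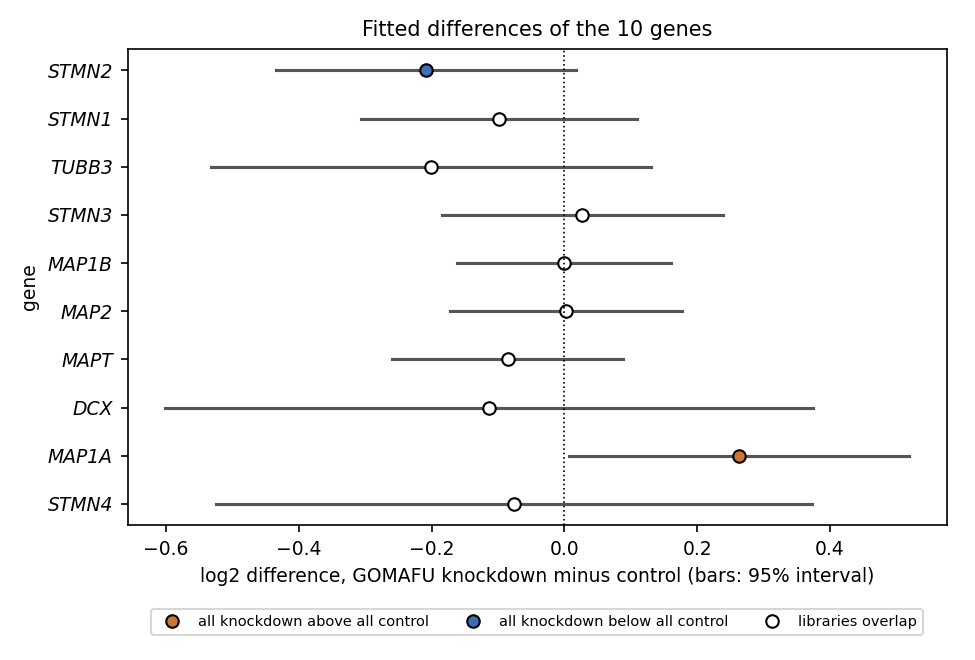
Fitted log2 difference in log2(FPKM + 1), GOMAFU knockdown minus control, for each of the 10 genes with its 95% interval from limma (3 libraries per group). The interval of MAP1A runs from 0.0068 to 0.52 before adjustment over genes, and the intervals of the other 9 genes include 0.

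STMN2, also called SCG10, is a stathmin anchored to Golgi-derived vesicles and growth cones of extending axons, and it was the only stathmin whose groups did not overlap. It lies on chromosome 8 (79610814 to 79666175, plus strand). Positions here are from GENCODE 29 (GRCh38). STMN2 was at 948.9, 899.8 and 1039 FPKM in control replicates 2, 3 and 4, against 754.5, 879.8 and 866.2 FPKM in knockdown replicates 2, 3 and 4. The highest knockdown library, replicate 3, lay just under the lowest control, and replicate 2 was the lowest of all. The knockdown mean, 833.5 ± 68.8 FPKM, was 86.6% of the control mean, a log2 difference of -0.21 (SE 0.096, 95% interval -0.435 to 0.018, adjusted p = 0.9998, limma). An exact permutation test (two-sided) gave p = 0.1, which is as low as 3 libraries against 3 can go. The difference was -0.14 without knockdown replicate 2 and -0.15 without control replicate 4, so its size depended on each of these libraries. In bulk RNA a lower level per cell and fewer cells with the transcript cannot be told apart. After quantile normalization, which gives all libraries 1 common distribution, the groups overlapped and the difference was -0.13.

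STMN1, the founding and broadly expressed stathmin, which is high in dividing cells, lies on chromosome 1 (25884181 to 25906991, minus strand). It was at 587, 565.1 and 547.8 FPKM in control libraries, against 518.4, 584.2 and 489 FPKM in knockdown replicates 2, 3 and 4. Knockdown replicates 2 and 4 were under every control, whereas replicate 3 lay within the control range. Its log2 difference was -0.098 (SE 0.088, interval -0.307 to 0.11). It was -0.17 without knockdown replicate 3 and -0.042 without knockdown replicate 4, so each of these libraries moved it by more than 1.5 times.

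STMN3, a neuronal stathmin on chromosome 20 (63639705 to 63657682, minus strand), did not separate the groups. Its values were 117.3, 107.2 and 102.9 FPKM in control libraries and 112.1, 119.7 and 102 FPKM in the knockdown libraries. Knockdown replicate 3 was the highest and knockdown replicate 4 the lowest of all 6. On the log2 scale the difference was 0.027 (SE 0.090, interval -0.185 to 0.239). It was -0.014 without control replicate 4 and -0.027 without knockdown replicate 3.

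STMN4, a stathmin found mainly in the nervous system, lies on chromosome 8 (27235323 to 27258420, minus strand) and was near the lower limit of the comparison. It was at 1.58, 1.40 and 1.97 FPKM in control libraries, against 1.10, 1.33 and 2.22 FPKM in the knockdown libraries. The libraries numbered 4 were the highest of their group, and knockdown replicates 2 and 3 were below all controls. The log2 difference was -0.076 (SE 0.19, interval -0.525 to 0.373), and it was 0.052 without knockdown replicate 2 and 0.0092 without control replicate 4.

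The balance between the stathmins overlapped between the groups for all 4 genes. STMN2 made up 57.3%, 57.2% and 61.4% of the summed FPKM of the 4 stathmins in control libraries and 54.4%, 55.5% and 59.4% in knockdown replicates 2, 3 and 4. The difference of -2.22 percentage points was smaller than either SD (2.40 and 2.59; exact permutation p = 0.4). STMN1 held 34.6% ± 1.93 in control libraries and 35.9% ± 2.11 in the knockdown libraries, and STMN3 6.66% ± 0.52 and 7.54% ± 0.55. The difference of STMN3, 0.883 percentage points, was larger than either SD, but the groups overlapped (exact permutation p = 0.2). In both groups the library numbered 4 had the highest share of STMN2. STMN4 stayed at or under 0.152% of the sum in every library. The summed stathmin level was 1640 ± 60.5 FPKM in control libraries and 1477 ± 101 in the knockdown libraries (exact permutation p = 0.2).

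MAP1A, a large MAP of mature neurons, cut from a precursor into a heavy chain and a light chain, was the only member higher in all knockdown libraries. It lies on chromosome 15 (43510958 to 43531620, plus strand). It was at 9.67, 9.75 and 7.78 FPKM in control replicates 2, 3 and 4, against 12.0, 10.3 and 10.8 FPKM in knockdown replicates 2, 3 and 4. Knockdown replicate 3, the lowest of its group, stood a little above the highest control, and control replicate 4 was the lowest of all 6. Its knockdown mean came to 122% of that in control libraries, a log2 difference of 0.26 (SE 0.11, unadjusted p = 0.0456, adjusted p = 0.9998, limma; exact permutation p = 0.1, the smallest possible). Without control replicate 4 the difference was 0.17. The unadjusted p was between 0.0506 and 0.144 in the 10 of 16 alternatives that took it past 0.05 (limma), among them quantile normalization and each library left out except knockdown replicate 3. The groups of MAP1A did not overlap in any alternative, but with fewer libraries this holds for more genes: 16.86% of all genes were higher without overlap when both libraries numbered 4 were left out.

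MAP1B, the MAP1 family member that dominates in growing axons, was at nearly the same level in both groups. It lies on chromosome 5 (72107234 to 72209570, plus strand). Its values were 56.3, 56.8 and 59.7 FPKM in control libraries and 59.9, 55.8 and 57.0 FPKM in the knockdown libraries. The ranges lay on top of each other, and the log2 difference was -0.00079 (SE 0.068, interval -0.161 to 0.16); quantile normalization turned its sign (0.024). The ratio of MAP1A to MAP1B FPKM, which does not depend on how a library is scaled, was 0.172, 0.172 and 0.130 in control libraries and 0.201, 0.184 and 0.190 in the knockdown libraries. It was higher in all 3 knockdown libraries (exact permutation p = 0.1, the smallest possible), with control replicate 4 the lowest. As MAP1B was nearly level, this ratio restates the MAP1A values and is not a separate result.

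MAP2, the dendritic MAP, lies on chromosome 2 (209424058 to 209734118, plus strand) and also stayed level. It was at 33.6, 36.8 and 36.8 FPKM in control libraries, against 36.7, 34.2 and 36.6 FPKM in the knockdown libraries. Every knockdown value fell inside the control range. The fitted log2 difference was 0.0030 (SE 0.074, interval -0.172 to 0.178), with its sign turned by upper-quartile scaling (-0.016). For MAP2 and MAP1B these intervals leave room for differences of up to about 0.18 in either direction, and a level held exactly is not shown.

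MAPT encodes tau, the axonal MAP that aggregates in tauopathies, and is found on chromosome 17 (45894382 to 46028334, plus strand). It was at 22.4, 21.6 and 23.0 FPKM in control libraries, against 21.8, 21.7 and 19.7 FPKM in the knockdown libraries. Knockdown replicate 4 was below all controls and the other two lay within their range. The log2 difference was -0.086 (SE 0.074, interval -0.26 to 0.089), and it was -0.040 without knockdown replicate 4. The antisense gene MAPT-AS1, whose reads could be counted with MAPT if strand was not used, reached at most 0.432 FPKM.

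DCX, doublecortin, a MAP of migrating neuroblasts on chromosome X (111293779 to 111412429, minus strand), varied most between controls. It was at 12.7, 14.8 and 22.3 FPKM in control replicates 2, 3 and 4, a coefficient of variation of 30.5% against 3.16% to 17.6% for the other 9 genes. In knockdown replicates 2, 3 and 4 it was at 14.1, 13.1 and 17.6 FPKM. All knockdown values lay within the control range, and in each group replicate 4 was the highest. The log2 difference was -0.11 (SE 0.21, interval -0.602 to 0.374), and it was 0.11 without control replicate 4, which therefore set its sign.

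Among these 5 MAP genes, MAP1A was the one whose share of their summed FPKM did not overlap between the groups. MAP1B held 40.8% ± 0.97 in control libraries and 41.0% ± 0.69 in the knockdown libraries, and MAP2 25.3% ± 0.93 and 25.5% ± 0.29. The share of MAP1A was 7.18%, 6.98% and 5.20% in control libraries and 8.33%, 7.62% and 7.65% in the knockdown libraries, without overlap (exact permutation p = 0.1, the smallest possible). This share rests on the same MAP1A values as above and is not a separate result. MAPT was at 15.8% ± 0.70 in control libraries and 15.0% ± 1.08 in the knockdown libraries. The difference of -0.844 percentage points was larger than the SD of the controls but smaller than that of the knockdown group (exact permutation p = 0.4). The share of DCX varied most, from 9.43% to 14.9% within the controls, and its means were 11.6% ± 2.89 and 10.6% ± 1.55 (exact permutation p = 0.7).

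TUBB3, the beta tubulin used as a neuronal marker, lies on chromosome 16 (89921392 to 89938761, plus strand), and its low value in the knockdown group came from 1 library. It was at 247.5, 226.2 and 223.8 FPKM in control libraries, against 221.7, 229.5 and 161.9 FPKM in knockdown replicates 2, 3 and 4. Replicate 4 had 69.6% of the control mean, whereas replicate 3 lay within the control range and replicate 2 just under it. On the log2 scale the difference was -0.20 (SE 0.14, interval -0.533 to 0.131), and it was -0.042 without knockdown replicate 4. That is the library with 9703 FPKM of interferon-induced genes; their part in the value of TUBB3 was not tested.

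**Figure D3:**
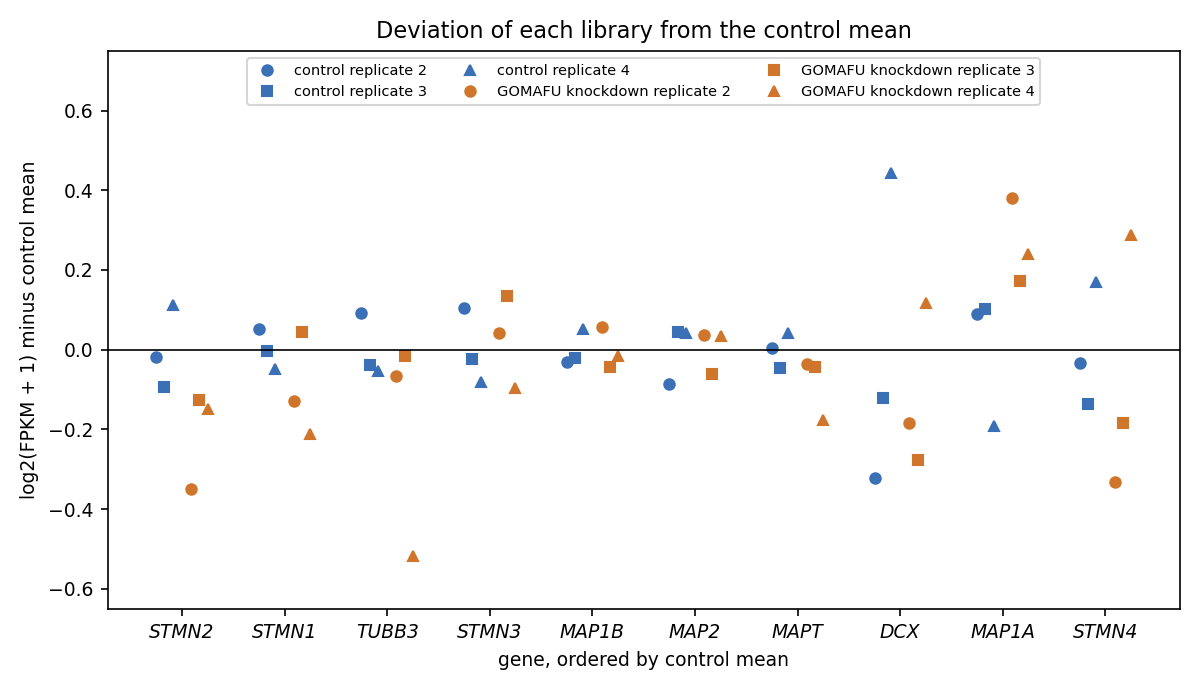
Deviation of each library from the control mean on the log2(FPKM + 1) scale, for the 10 genes in order of control level (blue, control; orange, GOMAFU knockdown; marker shape, replicate number). TUBB3 in knockdown replicate 4 is at -0.518, and DCX in control replicate 4 is at 0.444.

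The other tubulins gave a setting for TUBB3. TUBB, the most abundant beta tubulin, was at 1624, 1554 and 1560 FPKM in control libraries, against 1467, 1553 and 1285 FPKM in the knockdown libraries. It did not overlap between the groups, but knockdown replicate 3 was almost level with the lowest control. TUBB4B was at 329, 314 and 266.5 FPKM in control libraries, against 317, 327 and 189.6 FPKM in knockdown replicates 2, 3 and 4, with the same low replicate 4 as TUBB3. TUBB3 held a similar portion of the beta-tubulin FPKM in most libraries: 10.1%, 9.71% and 9.67% in control libraries and 9.90%, 9.73% and 8.71% in the knockdown libraries. The difference of -0.387 percentage points was smaller than the SD of 0.65 in the knockdown group but larger than the 0.25 of the controls (exact permutation p = 0.6). The difference was -0.017 without knockdown replicate 4. TUBB2A had a log2 difference of 0.37 (SE 0.24) and TUBB2B of -0.13 (SE 0.092). TUBB2A and TUBB2B are nearly identical, so how reads were divided between them is uncertain, and without both of them the difference in the share of TUBB3 was also -0.387.

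Of the 4 alpha tubulins tested, the partners of beta tubulin in the polymer, TUBA1A, TUBA1B and TUBA1C had their lowest value in knockdown replicate 4. TUBA8 went the other way, with 2.11 FPKM there against 0.815 to 1.25 FPKM in the other libraries. TUBA1B was at 1247, 1164 and 1113 FPKM in control libraries, against 1045, 1062 and 854.8 FPKM in the knockdown libraries, a log2 difference of -0.26 (SE 0.11, unadjusted p = 0.0481, adjusted p = 0.9998, limma). It was lower without overlap. TUBA1A, the main alpha tubulin of postmitotic neurons, was at 1289, 1202 and 1074 FPKM in control libraries, against 1045, 1173 and 684.9 FPKM in the knockdown libraries, with overlap. TUBA1A and TUBA1B are close copies and may share reads. The summed alpha-tubulin level was 2371 ± 176 FPKM in control libraries and 1962 ± 368 in the knockdown libraries (exact permutation p = 0.2), with knockdown replicate 4 the lowest at 1546.

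The 10 genes did not move as a block across libraries. Over the 6 libraries the highest correlations of log2 values among the 45 pairs were MAPT with TUBB3 (r = 0.879) and STMN1 with TUBB3 (0.867), and 26 pairs had r below 0. The lowest was STMN2 with MAP1A (r = -0.963). These are the members whose groups did not overlap, in opposite directions. Group means were not removed, so this r partly restates those differences. Control replicate 4 had the most STMN2 and the least MAP1A, and knockdown replicate 2 the reverse. STMN3 ran against DCX (-0.852) and MAP2 (-0.839). These points share 6 libraries and their scaling, the pairs were picked as the extremes of 45, and the values are descriptions.

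Genes outside the list followed the members closely, which with 6 libraries is common. Among 8984 other genes that averaged 5 FPKM or more, between 51 and 670 correlated with a given member at r of 0.9 or more. STMN2 was most like RPS2, a ribosomal protein gene (r = 0.985), and MAP3K13, a kinase of axon injury signalling (0.980). MAP1A was most like UVRAG (0.986) and SDE2 (0.982), MAP1B like ATRN (0.993) and ZNF281 (0.992), and MAP2 like PCCA (0.988) and IGSF3 (0.986). DCX had KHDRBS1 among its closest genes (0.995). TUBB3 was most like HADH (0.999) and SLC2A4RG (0.998), and MAPT like SMARCE1 (0.982) and HJURP (0.980). STMN1 was most like EIF4A1 (0.997) and COA4 (0.994), STMN3 like GPX1 (0.996) and PDRG1 (0.992), and STMN4 like NREP (0.996) and SNHG7 (0.995).

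Windows of 250 bases before the annotated start were read from RefSeq (GRCh38.p14) for 7 of the 10 genes, 16 windows in all; STMN2, STMN4 and MAPT had no entry. Base composition differed between the members. The single window of STMN3 had 78.0% G and C with an observed to expected CpG ratio of 0.755, and the 3 of STMN1 had 63.6% to 76.0% and 0.665 to 0.784. The 3 windows of DCX had 42.0% to 44.0% and ratios of 0.0844 to 0.283, and those of MAP2 37.6% to 51.2%. The median of 35116 windows in the table was 58.0% and 0.558. The GC box, GGGCGG on either strand, was found in 42.6% of all windows, TATAAA in 10.7% and CCAAT in 32.0%. STMN3 and MAP1A are printed because STMN3 shows the GC-rich start of an abundant member and MAP1A is the member higher without overlap; capitals mark GC boxes, and both windows lie inside the gene as GENCODE 29 annotates it, outside its exons.
STMN3, chr20:63652767-63653016, minus strand: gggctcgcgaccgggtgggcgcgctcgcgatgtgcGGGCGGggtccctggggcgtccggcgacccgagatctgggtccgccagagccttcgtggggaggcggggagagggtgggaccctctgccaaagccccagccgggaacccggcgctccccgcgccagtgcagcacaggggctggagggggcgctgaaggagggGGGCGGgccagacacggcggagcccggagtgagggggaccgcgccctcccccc
MAP1A, second start, chr15:43517358-43517607, plus strand: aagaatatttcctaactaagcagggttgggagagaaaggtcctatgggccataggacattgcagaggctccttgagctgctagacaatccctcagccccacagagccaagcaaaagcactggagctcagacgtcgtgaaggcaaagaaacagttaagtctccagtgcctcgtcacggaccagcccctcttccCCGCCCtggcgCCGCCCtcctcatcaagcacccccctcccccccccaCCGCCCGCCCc
STMN3 holds 2 GC boxes and this MAP1A window 4, and neither holds TATAAA or CCAAT. The other MAP1A window, before the first start, had 70.4% G and C, with 2 GC boxes and 2 CCAAT. It is not printed because it overlaps an annotated exon. The printed MAP1A window precedes its second annotated start, and a level per gene cannot tell which start was used. These matches describe the letters only.

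The rest of the microtubule machinery was read from 10 lists by function, with 180 genes tested besides the 10 members. None passed the threshold (limma), 10 were lower and 2 higher without overlap (4.35% and 4.01% of all genes do so), and 107 had a fitted difference below 0 (53.3% of all genes). Other MAPs had a median of -0.017 over 28 genes, with 1 lower without overlap, TPX2, a spindle assembly factor (-0.18, SE 0.11). EML4 and MAP7D1 had differences of 0.12 and 0.11, both with overlap. ENSA, which this list also counts although it is not a MAP, had -0.11, with overlap. Transport motors had a median of -0.022 over 28 genes, with DCTN1, the large dynactin subunit, lower without overlap (-0.090, SE 0.064). Severing enzymes had a median of -0.035 over 7 genes, none without overlap, with the katanin subunit KATNA1 at -0.14.

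The folding list holds cofactors that assemble the tubulin dimer, but most of its entries are chaperonin and prefoldin subunits. It had 18 of 21 genes fitted below 0, beside 53.3% of all genes, with a median of -0.11. Of these 1, the cofactor TBCD, was lower without overlap (-0.14, SE 0.084). The chaperonin subunit CCT2 (-0.12) and ARL2, a small GTPase that works with the cofactors (-0.18), had their lowest value in knockdown replicate 4, and PFDN5 of the prefoldin complex differed by -0.11. The gamma-tubulin and nucleation list had 13 of 14 fitted below 0, beside the same 53.3%, with a median of -0.049, and 3 lower without overlap. These were TUBG2, a gamma tubulin, at 15.1, 14.9 and 14.9 FPKM in control libraries and 12.8, 13.5 and 11.7 FPKM in the knockdown libraries, MZT2B (-0.16) and TUBGCP6 (-0.27). Members of a list share libraries and move together, so these counts are not separate observations, and neither list was tested.

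Enzymes that modify tubulin had a median of -0.00097 over 18 genes, with TTLL1, which adds glutamate chains to tubulin, lower without overlap. It was at 7.50, 8.11 and 8.13 FPKM in control libraries, against 5.53, 6.16 and 6.89 FPKM in the knockdown libraries (log2 -0.31, SE 0.095, unadjusted p = 0.0134, adjusted p = 0.9998, limma). TTLL12 differed by -0.21. Of the 4 tested genes of the system on chromosome 22, which carries MIAT, the 3 on its distal long arm (TTLL1, TTLL12 and TUBGCP6) had fitted differences below 0 and TUBA8 had 0.14. MIAT lies far from them, at 26646428 to 26676475, whereas TTLL1 starts at 43039644 and TUBA8 at 18110331. A link with the position of MIAT was not tested. End-binding proteins had a median of -0.0017 over 25 genes, with NAV2, a neuron navigator, higher without overlap (0.20, SE 0.10).

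Kinases and RNA-binding proteins that act on the members or their transcripts had 21 of 30 genes fitted above 0, beside 46.7% of all genes, and a median of 0.030. CDK5, a kinase that phosphorylates tau, MAP1B and doublecortin, was at 14.4, 13.7 and 16.4 FPKM in control libraries, against 12.6, 13.6 and 11.2 FPKM in the knockdown libraries. Its groups did not overlap, although knockdown replicate 3 was only just below the lowest control (log2 -0.24, SE 0.10, unadjusted p = 0.0531, adjusted p = 0.9998, limma). DYRK1A, another tau kinase, was higher without overlap (0.095, SE 0.077, unadjusted p = 0.258, limma). Its lowest knockdown value, 16.26 FPKM in replicate 2, was only just above the highest control, 16.2 FPKM. FMR1, which binds MAP1B mRNA, was at 12.0, 13.4 and 13.3 FPKM in control libraries and 12.7, 13.0 and 23.0 FPKM in the knockdown libraries, high in replicate 4 alone.

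**Figure D4:**
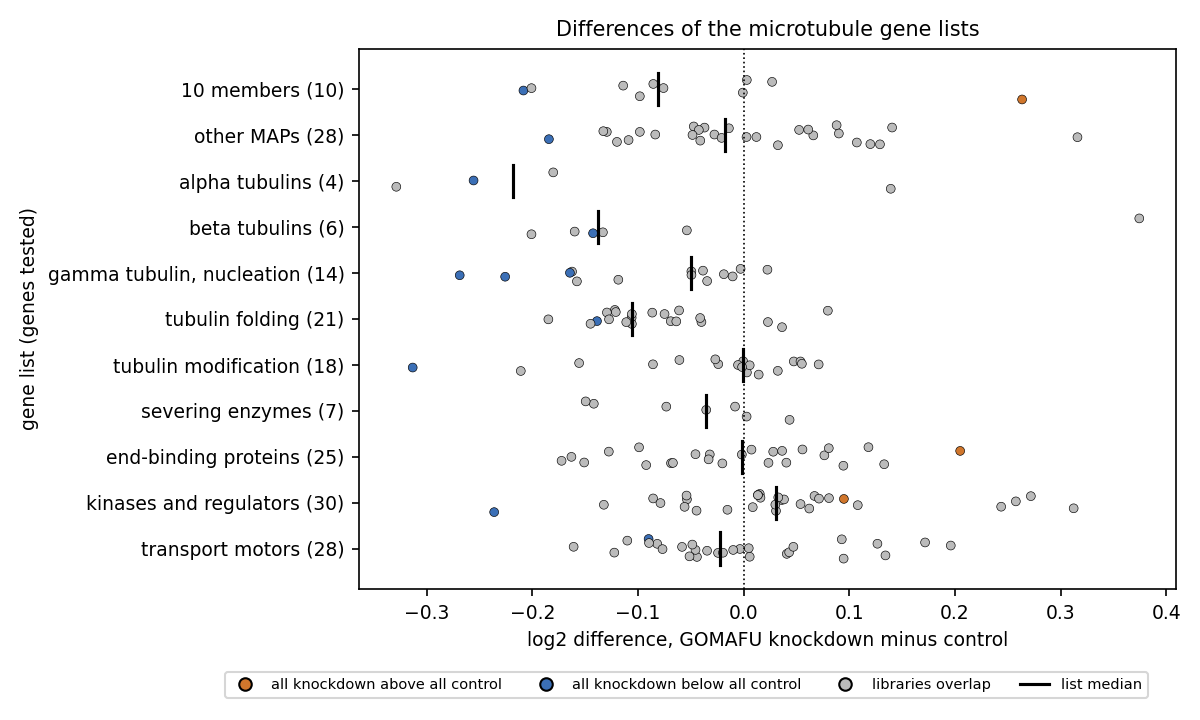
Fitted log2 difference, GOMAFU knockdown minus control, for each tested gene of the 10 members and of 10 other lists of the microtubule system (points; black bars, list medians; orange and blue, groups without overlap). Alpha tubulins have the lowest median (-0.218, 4 genes), and TUBB3 appears both among the members and the beta tubulins.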

How the data were processed

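The authors deposited FPKM values for 26372 genes, 1 column per library, made with TopHat2 and Cuffdiff on the hg38 build, per the submitters' processing notes. Their versions, the annotation, the filters and the use of strand are not stated there. Per the labels' protocols, reads were paired, 150 bases long, with a target of 100M per library. FPKM scales by gene length and mapped total, so a library with very abundant transcripts shows lower values elsewhere. No count model was used. The 12164 genes that averaged 1 FPKM or more across the 6 libraries were compared on log2(FPKM + 1), a scale that understates changes of low genes, with limma 3.58.1 in R 4.3.3 (lmFit, eBayes with trend, no covariate, two-sided) and Benjamini-Hochberg adjustment. Shares and single genes were compared with exact permutation tests (scipy 1.17.1), whose smallest p is 0.1. The limma step was tested on data simulated from the means and SDs of the controls. These hold no library that stands apart like knockdown replicate 4, so the test does not show what the fit could find here.

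The members, gene lists and tests were chosen with earlier results of these data known. The 10 other lists had 210 entries, 209 of them in the table. All members were named, with up to 4 genes of smallest p per list, the tubulins, and the 2 genes most alike in pattern; other genes without overlap, and those on chromosome 22, were named after their values were seen. A few genes that this rule or the marker lists would name are not reported here; they stay in the counts, sums and medians. Coordinates are from GENCODE 29 (GRCh38, the same build as hg38). Alternatives changed the pseudocount (0.1, 0.01), filter (none, 5 FPKM), scaling, weights, trend, replicate block and libraries used.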

Additional observations from a re-analysis of the deposited data

How the results depend on the processing

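No member passed the threshold under any of the alternatives run, though 22 other genes did with library weights and 1 without both libraries numbered 4, and 143 of 159 member values kept their direction. MAP1A was higher without overlap in all of them, at shares of all genes from 3.19% (quantile normalization) to 16.86% (without both libraries numbered 4). Its unadjusted p was under 0.05 in 6 of 16, and that of STMN2 only with library weights (0.0073). The count of members lower without overlap, 1 (STMN2), was 0 after quantile normalization, 2 without both libraries numbered 4 (STMN2 and STMN4) and 1 to 3 with each library left out in turn. Fewer libraries overlap less: the share of all genes lower without overlap, 4.35% with 6 libraries, was 19.39% without both libraries numbered 4 and 6.52% to 11.67% with each left out. STMN1 and TUBB3 joined STMN2 without knockdown replicate 3, MAP2 without control replicate 2, MAPT without control replicate 3, and STMN4 without knockdown replicate 4. The median log2 difference of the members, -0.081, was -0.030 with library weights and -0.014 without both libraries numbered 4, and it ran from -0.104 to -0.0023 with each library left out, nearest 0 without control replicate 4. The sign turned for MAP2 with upper-quartile scaling (-0.016) and library weights (-0.013), and for MAP1B with quantile normalization (0.024), library weights (0.054) and without both libraries numbered 4 (0.032). With each library left out, MAP2 ran from -0.040 to 0.035, MAP1B from -0.030 to 0.025, STMN3 from -0.027 to 0.088, STMN4 from -0.26 to 0.052 and DCX from -0.28 to 0.11. With library weights MAPT was at -0.0044 and TUBB3 at -0.048. The STMN2 share ran from -3.68 to -0.833 percentage points and the TUBB3 share from -0.615 to -0.017. The cause was not tested.

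With the replicate number as a block, no member and no other gene passed the threshold, the log2 difference of STMN2 was -0.21 and of MAP1A 0.26, and the counts without overlap were 1 and 1. That overlap was judged after the block was subtracted, where 14.12% of all genes were lower and 12.05% higher without it. The labels do not state that the numbers are pairs, so the block was kept as an alternative. Deviations of same-numbered libraries correlated at 0.092, 0.168 and 0.322. Those of differently numbered libraries ran from -0.336 to 0.318, most of them below 0. These few values do not settle whether the numbers are pairs. The lowest adjusted p of any member was 0.0836, for MAP1A with library weights. The stricter filter of 5 FPKM left out STMN4. With 3 libraries per group and unknown depth, differences of the size seen here were not resolved.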
